A study of Mus musculus with 2 samples.

Results

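Cfhr2 lies on chromosome 1 of the mouse among related genes of the complement system, of which Cfhr3 and Gm4788, listed by RefSeq also as Cfhrc, are described with it. The region described here runs from 139200001 to 140800000 of build mm10. It was defined by position, as all windows of the deposited table that lie wholly inside these limits, and by this rule it held 32 of 43941 windows of 50 kb, 31 of them with a count. It was picked for study because neighbouring windows around Cfhr2 differed in opposite allelic directions, so the allelic counts below are a description and no test is applied to them. No window of the 50 kb grid was missing inside the limits.

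The values come from ATAC-seq, in which a transposase inserts adapters into accessible DNA. The cells were F121-6, a female hybrid mouse embryonic stem cell line with 1 chromosome set from 129 mice and 1 from castaneus (CAS) mice. They were cultured with serum and LIF on mitomycin-C-inactivated embryonic fibroblasts, whose strain the labels do not give, and nuclei from 200000 cells went into each library. The comparison is between the 129 allele and the CAS allele of the same cells, in 2 replicates; nothing says whether the replicates were separate cultures, so their spread may be technical.

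Complement is a cascade of blood proteins that marks surfaces with fragments of C3, and its regulators hold it back on the body's own cells. Cfhr2, Cfhr3 and Gm4788 belong to a gene family whose proteins are made largely by the liver, are built from short repeat domains and are thought to act on this regulation. The genes arose by duplication, and stretches of them are much alike.

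That likeness can be seen in the stretches before the genes. RefSeq promoters (GRCm38.p6, 300 bases around each start) were at hand for 12 genes of the region, among them Cfhr2, Gm4788 and Cfhr3. These 3 are shown because their windows differ in allelic counts while much of their sequence is shared. All run 5′ to 3′ on the minus strand, and capitals mark the 230 positions that are identical in all 3 after alignment. They lie at chr1:139858650-139858949, chr1:139781190-139781489 and chr1:139660957-139661256.

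Cfhr2: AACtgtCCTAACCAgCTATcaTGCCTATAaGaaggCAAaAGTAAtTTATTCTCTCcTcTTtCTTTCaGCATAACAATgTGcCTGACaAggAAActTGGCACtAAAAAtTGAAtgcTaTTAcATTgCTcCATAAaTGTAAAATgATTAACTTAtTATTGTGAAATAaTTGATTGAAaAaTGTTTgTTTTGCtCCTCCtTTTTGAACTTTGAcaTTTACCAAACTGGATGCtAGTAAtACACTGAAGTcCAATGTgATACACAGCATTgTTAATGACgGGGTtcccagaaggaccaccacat
Gm4788: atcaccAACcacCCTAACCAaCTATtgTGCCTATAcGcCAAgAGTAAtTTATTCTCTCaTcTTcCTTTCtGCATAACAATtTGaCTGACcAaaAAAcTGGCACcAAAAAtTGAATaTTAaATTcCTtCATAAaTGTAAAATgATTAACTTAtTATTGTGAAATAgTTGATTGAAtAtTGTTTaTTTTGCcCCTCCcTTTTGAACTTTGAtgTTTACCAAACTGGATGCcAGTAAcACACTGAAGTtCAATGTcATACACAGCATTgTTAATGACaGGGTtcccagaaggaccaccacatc
Cfhr3: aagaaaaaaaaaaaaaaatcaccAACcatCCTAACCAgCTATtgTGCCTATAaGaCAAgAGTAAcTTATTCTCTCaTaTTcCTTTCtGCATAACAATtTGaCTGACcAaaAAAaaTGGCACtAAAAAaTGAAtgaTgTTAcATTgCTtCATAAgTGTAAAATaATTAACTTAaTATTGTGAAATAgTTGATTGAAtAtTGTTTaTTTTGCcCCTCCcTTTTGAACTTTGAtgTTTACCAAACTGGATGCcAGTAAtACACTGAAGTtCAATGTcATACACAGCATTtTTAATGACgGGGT

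The Cfhr2 promoter was identical to that of Gm4788 at 88.4% of 293 aligned bases and to that of Cfhr3 at 87.0% of 277. The Gm4788 and Cfhr3 promoters were identical at 93.5% of 279 aligned bases. Bases set against a gap, those at the ends included, numbered 14 between Cfhr2 and Gm4788, 46 between Cfhr2 and Cfhr3, and 42 between Gm4788 and Cfhr3. The 289 stretches of 12 bases in the Cfhr2 promoter were searched on either strand in the 32851 mouse promoters at hand. Among those, only Gm4788, with 62, and Cfhr3, with 21, shared 20 or more. The promoters at hand do not cover every gene of the region, so related promoters outside this set were not searched. Whether fragments of one gene copy were assigned to another was not tested, and the sources used here do not say how the authors handled fragments with several matching places.

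These promoters were poor in CG dinucleotides, unlike those of some genes nearby. Each of the 3 held 1 CG dinucleotide, against a median of 7 over all promoters, and had 35.0% (Cfhr2), 35.3% (Gm4788) and 31.0% (Cfhr3) G and C, against a median of 52.7%. Aspm, a gene of the mitotic spindle, had 19 CG dinucleotides in the promoter shown next for contrast (chr1:139454523-139454822, plus strand, each CG in capitals).

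Aspm: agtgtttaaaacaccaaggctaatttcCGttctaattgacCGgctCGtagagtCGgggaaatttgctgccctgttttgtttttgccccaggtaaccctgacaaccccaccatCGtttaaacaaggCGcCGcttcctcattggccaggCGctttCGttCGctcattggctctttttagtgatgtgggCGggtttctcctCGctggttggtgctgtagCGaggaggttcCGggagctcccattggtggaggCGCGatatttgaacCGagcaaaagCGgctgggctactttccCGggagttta

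Zbtb41, a zinc finger gene, had 45 CG dinucleotides and Kcnt2, the gene of a sodium-activated potassium channel, had 12. Motif letters were searched on both strands after the sequences had been seen. Matches of different patterns, with CCAAT left out of this check, overlapped at 0 places in the 12 promoters. The letters CAAAGTNCA, a form of the site of the liver factor HNF4, were found in Cfhr2, Gm4788 and Cfhr3 and in none of the other 9 promoters of the region; 1.41% of all promoters hold them. GTTAAT, part of the site of the liver factor HNF1, was found in the same 3 and in F13b, against 7.1% of all promoters. ATGCAAAT, the octamer bound by stem cell factors of the POU family, was in none of the 12 promoters, against 1.74% of all. GGGCGG, the GC box, was found in Zbtb41 and Aspm, against 35.7% of all. CCAAT, the CCAAT box, was found in 6 of the 12, with Cfhr2 among them and Gm4788 and Cfhr3 not, against 37.4% of all. Cfhr2, Gm4788 and Cfhr3 have promoters that are much alike, so the matches they share are not independent of each other. These matches describe letters only.

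Cfhr2 spans the place where the allelic direction changed. The gene covers 139810292 to 139858699 on the minus strand, so that its body lies mostly in one window and its start in the next. In the window of the body, 139800001 to 139850000, the 129 allele had 0 counts in both replicates, against 1 (replicate 1) and 2 (replicate 2) on the CAS allele. In the window of the start, 139850001 to 139900000, the 129 allele had 1 and 4 counts, against 0 and 0 on the CAS allele. The first window also holds the non-coding gene Gm41963 and the second the pseudogene Gm16332, and a window of this size cannot place a count within Cfhr2. Summed over both windows, Cfhr2 had 1 and 4 counts on 129, against 1 and 2 on CAS, so that the opposite directions largely cancelled in the gene's total.

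The change at Cfhr2 was the first of 2 in a row. Before it, the window from 139750001 to 139800000, with the start of Gm4788, had 0 and 0 on 129, against 1 and 2 on CAS. Beyond the Cfhr2 start, 139900001 to 139950000, with the pseudogenes Gm16332 and Gm5837, had 1 and 2 on 129, against 0 and 1 on CAS. The next window, 139950001 to 140000000, holds no annotated gene and had 3 and 5 on 129, against 0 and 0 on CAS. There the direction turned again: 140000001 to 140050000, which holds only the small nucleolar RNA gene Gm26048, had 1 and 6 on 129, against 6 and 12 on CAS. The last window of like direction, 140050001 to 140100000, had 1 and 3 on 129, against 3 and 6 on CAS. In each of these 7 windows both replicates differed in the same direction, although several did so by a single count.

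**Figure D1:**
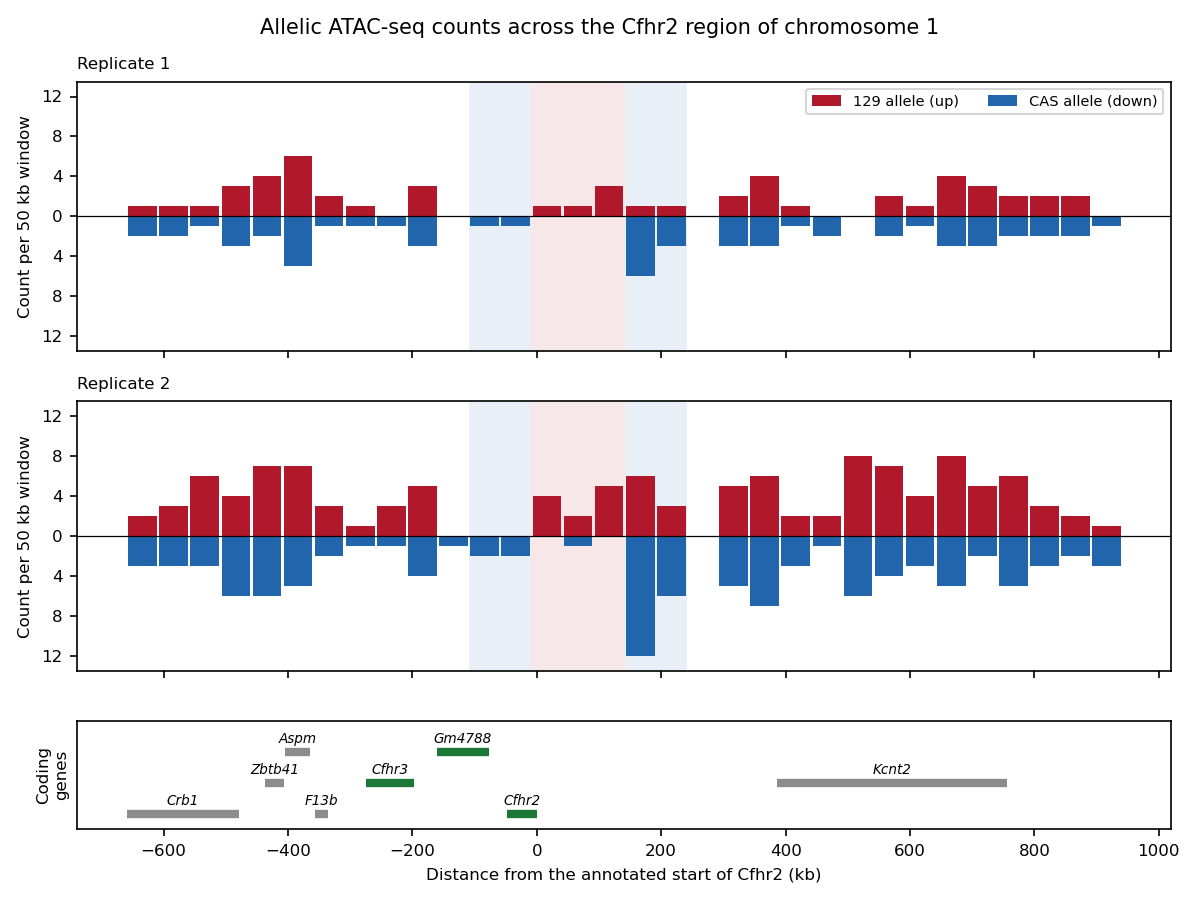
Counts per 50 kb window on the 129 allele (red, upward) and the CAS allele (blue, downward) in replicate 1 (top) and replicate 2 (middle), by distance from the annotated start of Cfhr2 in kb. The bottom panel places the coding genes, with Cfhr2, Gm4788 and Cfhr3 in green and not every gene drawn, Crb1 drawn up to the region's edge. Shading marks the 3 stretches of like direction. CAS counts stand alone in the blue stretch on the left, 129 counts nearly alone in the red stretch, and in the blue stretch on the right both alleles have counts, with 6 and 12 on CAS in its tallest window.

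Grouped by direction, the 7 windows formed 3 abutting stretches. The stretch over the start of Gm4788, but not the rest of that gene, and the body of Cfhr2 (139750001 to 139850000) held 0 and 0 counts on 129, against 2 and 4 on CAS. The stretch beginning with the window of the Cfhr2 start (139850001 to 140000000) held 5 and 11 on 129, against 0 and 1 on CAS. The stretch after it (140000001 to 140100000) held 2 and 9 on 129, against 9 and 18 on CAS. Windows were grouped by direction, so the order of the alleles within each replicate follows from the grouping. How far the alleles separate in like stretches elsewhere in the table was not counted. In the last stretch the 129 count of replicate 2 equalled the CAS count of replicate 1.

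As a share of both alleles, 129 had 95.8% ± 5.89 (SD, n = 2) of the middle stretch and 25.8% ± 10.7 (SD, n = 2) of the last stretch. Each stretch was made of windows of 1 direction in both replicates, so these shares are descriptions. The first stretch rests on 2 and 4 counts, the middle on 5 and 12 and the last on 11 and 27. The SD is the spread between the 2 replicates and does not give the counting error. Over the 3 stretches together the 129 allele had 7 and 20 counts, against 11 and 23 on CAS, which is a 129 share of 42.7% ± 5.39 (SD, n = 2).

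**Figure D2:**
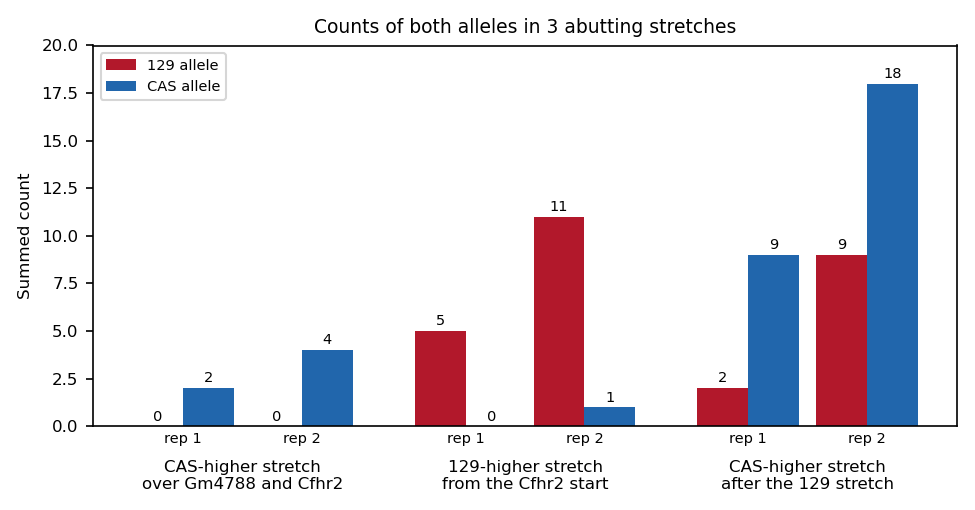
Counts summed over the windows of each stretch, on the 129 allele (red, left bar of a pair) and the CAS allele (blue, right bar), for each replicate; the number above a bar is its count. The middle stretch has 5 and 11 on 129 and 0 and 1 on CAS, while the stretches beside it have more on CAS in both replicates.

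Direction changes of this kind were counted over the whole table as a frame for the region. Of 29 pairs of abutting windows with a count in each, 2 in the region had opposite directions in both replicates, and 2.33% of 27737 such pairs in the table did. These are the pair inside Cfhr2 and the pair at 140000000. Pairs alike in both replicates numbered 6 in the region, and 4.25% of pairs in the table were alike. A run of like windows followed at once by an opposite run and then by a return to the first direction occurred at 74 places in the table, 5 of them on chromosome 1. The run around Cfhr2 covered 7 windows, the most of the 74, and the next covered 6, at 38000001 to 38300000 on chromosome 7. The region was picked for this pattern, so its place in that order is a description. Its windows also averaged more counts than those of the table, and these numbers are not adjusted for that.

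**Figure D3:**
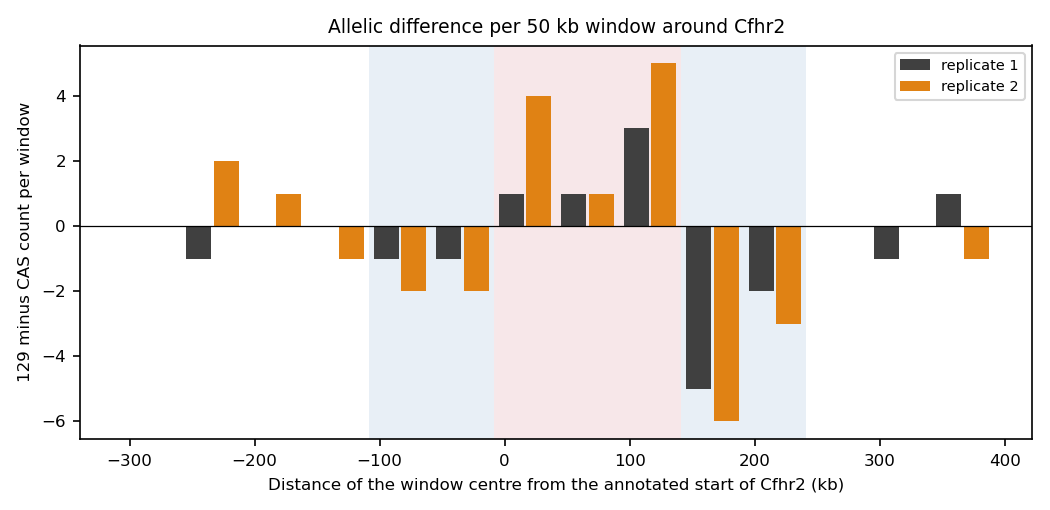
Difference between the 129 and the CAS count per 50 kb window, for replicate 1 (grey) and replicate 2 (orange), by distance of the window's centre from the annotated start of Cfhr2 in kb. Bars above 0 mean a higher 129 count. The sign changes at the window border inside Cfhr2. It changes again between the window with differences of 3 and 5 and the window with differences of -5 and -6.

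The pair at 140000000 had the largest differences of the region. Its first window differed by 3 and 5 counts towards 129, and 103 windows of the table differed by 3 or more towards 129 in both replicates. It held counts on 129 alone with a total of 8, and 8 windows of the table had 129 counts alone with a total of 8 or more. The second differed by 5 and 6 counts towards CAS, and 9 windows of the table differed by 5 or more towards CAS in both replicates. Both replicates differed by at least 2 counts in 1 window of the region towards 129 and in 2 towards CAS, against 1.6% and 1.92% of all windows with a count.

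Over the whole region, the alleles were close to balance. The 129 allele had 52 and 120 counts, against 57 and 107 on CAS. The 129 share was 47.7% in replicate 1 (exact Clopper-Pearson 95% interval 38.1 to 57.5%, 109 counts, counting error only) and 52.9% in replicate 2 (46.1 to 59.5%, 227 counts), with a mean of 50.3% ± 3.65 (SD, n = 2). Outside the region chromosome 1 had a mean share of 47.9% ± 1.30 (SD, n = 2), which differs from the region by less than the region's spread. Of the 31 windows with a count, 7 were higher on 129 in both replicates, against 11.4% of all windows with a count, and 6 were higher on CAS, against 12.6%. The other 18 were level in a replicate or, in 3 windows, opposite between replicates. Of the 13 windows with a shared direction, 7 are those around Cfhr2. The region averaged 3.41 and 7.09 counts per window in the 2 replicates, against 2.05 and 2.73 in the whole table. A shared direction needs counts, and the part of these totals in the shares was not tested.

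edgeR's quasi-likelihood test over the whole table called 0% of 34417 windows at an adjusted p under 0.05 (0 windows, 910 at an unadjusted p under 0.05), 0 of them in the region. limma on centred square roots called 0.227% of the windows. Its single call in the region was 139950001 to 140000000. That call was lost when limma paired the alleles by replicate, a fit with 0 calls in the whole table and 5091 windows at an unadjusted p under 0.05. The region was proposed from this contrast, so nothing further is read from these calls.

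Gm4788 and Cfhr3 were described by the same sums over their windows. Gm4788 had 3 and 5 on 129, against 4 and 7 on CAS, over 3 windows. All its 129 counts come from 139650001 to 139700000, which it overlaps only with its far end and which also holds the Cfhr3 promoter, so that these counts enter the sums of both genes. The window of its own promoter had CAS counts alone. Cfhr3 had 4 and 9 on 129, against 5 and 6 on CAS, with opposite directions in the replicates. The Cfhr3 promoter lies in 139650001 to 139700000, which was near level with 3 and 5 on 129, against 3 and 4 on CAS. The 3 related promoters thus lie in windows with 129 counts alone (Cfhr2), CAS counts alone (Gm4788) and counts of both (Cfhr3). These windows hold only 5, 3 and 15 counts in all. A window of 50 kb cannot place a count at a promoter, and how often such small totals fall on 1 allele was not counted.

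Of Zbtb41, Aspm, F13b and Crb1, which precede these genes, 3 had more counts on 129 in both replicates, by 1 to 3 counts in each; 14.5% of all coding genes with a count were higher on 129 in both. They are neighbours, and Zbtb41 and Aspm share a window. Zbtb41 had 10 and 14 counts on 129, against 7 and 11 on CAS, over 2 windows. Aspm had 6 and 7 on 129, against 5 and 5 on CAS, in 1 of those windows. F13b, which encodes a subunit of coagulation factor XIII built from the same repeat type, had 2 and 3 on 129, against 1 and 2 on CAS. Crb1, a gene of cell polarity in the retina, had 7 and 21 on 129, against 9 and 20 on CAS, and no shared direction. The non-coding gene 4933436E23Rik had 7 and 11 on 129, against 5 and 12 on CAS, over 2 windows that these genes also overlap. Gm34816, also non-coding, had 4 and 7 on 129, against 2 and 6 on CAS, in a window it shares with Zbtb41. The small nuclear RNA genes Gm26271 and Gm25619 lie in the promoter windows of Cfhr3 and Gm4788 and have the counts given for those.

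Towards the far end of the region, Kcnt2 had 17 and 48 counts on 129, against 17 and 36 on CAS, over 9 windows. The alleles were equal in replicate 1 and 129 was higher in replicate 2. The window with its promoter, 140200001 to 140250000, had 4 and 6 on 129, against 3 and 7 on CAS, which is near level. The non-coding gene 4930590L20Rik had 7 and 14 on 129, against 7 and 10 on CAS. At the edges of the region, the first window inside had 1 and 2 on 129, against 2 and 3 on CAS, and the window before it, outside, had 1 and 6 on 129, against 1 and 5 on CAS. The last window inside had 0 and 1 on 129, against 1 and 3 on CAS, and the window after it, outside, had 1 and 3 on 129, against 2 and 5 on CAS.

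Counts of both alleles together were high for much of the region. The choice of the region did not use these totals directly. An allelic difference needs counts, however, so the totals are not independent of that choice. The region averaged 3.41 counts per window in replicate 1 and 7.09 in replicate 2, against 2.20 and 3.12 on the rest of chromosome 1. The 7 windows that overlap Cfhr2, Gm4788 or Cfhr3 averaged 1.71 and 3.43, against 3.88 and 8.12 in the other 25. No test was made between windows. The window with the highest total was 140000001 to 140050000, with 7 and 18 counts and no coding gene. Its total of 25 lay at the 99.2 percentile of the table. Next came the Aspm window with 11 and 12 counts, at the 98.9 percentile. The window of the Cfhr2 start, with 1 and 4 counts, lay at the 63.5 percentile and that of its body, with 1 and 2, at the 46.2 percentile, near the middle of all windows.

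The replicates differed in these totals. Replicate 2 had 2.08 times the counts of replicate 1 in the region, against 1.33 times in the whole table and 1.42 times on the rest of chromosome 1. It was higher in 29 of the 32 windows, equal in 3 and lower in 0. Among 608 complete stretches of 1.6 Mb with 50 or more counts in replicate 1, the ratio ran between 0.58 and 3.56 with a median of 1.21, and 32 stretches exceeded the region. The limit of 50 was set on replicate 1, the divisor of the ratio, and so favours stretches with a lower ratio. Inside Kcnt2, 140350001 to 140400000 had 0 counts on both alleles in replicate 1, against 8 on 129 and 6 on CAS in replicate 2. It was the only window in the table with 0 counts in replicate 1 and 14 or more in replicate 2. With 2 libraries this difference cannot be tested, and its part in the allelic values was not tested.

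**Figure D4:**
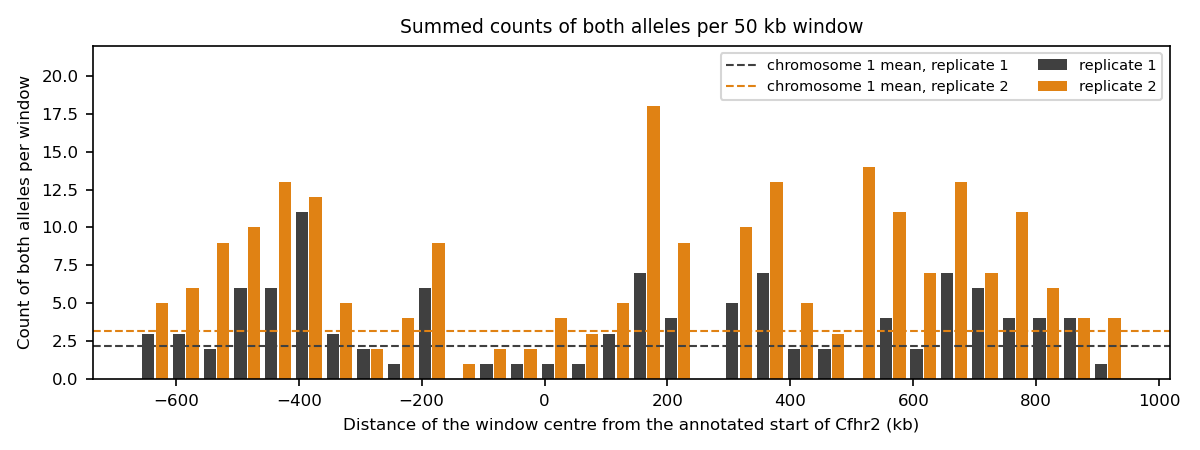
Counts of both alleles together per 50 kb window, for replicate 1 (grey) and replicate 2 (orange), by distance of the window's centre from the annotated start of Cfhr2 in kb; dashed lines are the means of chromosome 1, 2.21 and 3.15. Replicate 2 is higher in 29 windows. The tallest window, with 7 and 18 counts, lies just beyond the 129 stretch, and several windows over the Cfhr genes are among the lowest.

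Genes of the complement system had a shared direction about as often as coding genes at large. Of 48 genes on the list, 44 were matched to coding genes of chromosomes 1 to 19 and 39 had a count, Cfhr2, Cfhr3 and Gm4788 included. Of the 39, 5 were higher on 129 in both replicates, against 14.5% of all coding genes with a count, and 5 were higher on CAS, against 15.4%; 29 had no shared direction. Without the genes of the region the counts were 5 and 4 of 36. The median difference over both replicates was 0, as it was for all coding genes. Outside the region, C3ar1, the receptor of the C3a fragment, had 11 and 13 on 129, against 8 and 9 on CAS. C8b, a part of the pore that complement forms in membranes, had 2 and 2 on 129, against 0 and 1 on CAS, and Mbl2, a lectin that starts the cascade, had 2 and 5 on 129, against 1 and 3 on CAS. In the CAS direction, C9, which completes the pore, had 1 and 1 on 129, against 3 and 2 on CAS. Masp1, a protease of the lectin route, had 1 and 2 on 129, against 2 and 4 on CAS. These genes lie on 5 different chromosomes. Cd55, a membrane inhibitor, and its neighbour Cd55b, elsewhere on chromosome 1, went opposite ways: Cd55 had 2 and 2 on 129, against 1 and 1 on CAS, and Cd55b had 2 and 4 on 129, against 3 and 5 on CAS.

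Other genes had the same counts as Cfhr2. Of 17064 coding genes outside the region with a count, 12 had exactly its 4 counts (distance 0 on the square root scale over 2 replicates and 2 alleles), so no most similar gene can be named. The cell type named in the labels was compared with its markers by the mean count per window, both alleles and replicates together. Windows of 9 embryonic stem cell markers, all with counts, averaged 21.6 and summed to between 12 (Klf4) and 89 (Esrrb) per gene, against 6.40 over all coding genes. Klf2 was not analysed here. Fibroblast feeder markers averaged 4.64, with 9 of 10 having a count, sums up to 17 and Postn at 0. Liver markers averaged 2.14, with 4 of the 6 in the table having a count, sums up to 9, and Alb and Serpina1a at 0.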

How the data were processed

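ATAC-seq libraries of 2 replicates of F121-6 cells were sequenced as 100 bp paired ends, per the labels' protocols. Build mm10 and the tools SAMtools, bedtools, Bowtie2 and MACS2 are listed in the submitters' processing notes, with no version or role. The authors deposited whole-number counts per 50 kb window, 1 column per allele and replicate, with no visible normalization. The sources used here give neither what is counted nor how alleles were assigned, so the read depth behind a count is unknown. Column totals on 129 were 44026 (replicate 1) and 59812 (replicate 2), against 46128 and 59995 on CAS, with values up to 18.

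Windows (coordinates 1-based) were matched to RefSeq genes of GRCm38.p6, the assembly of mm10, by any shared base. A direction is the sign of 129 minus CAS, shared when equal in both replicates. Percentiles rank window totals, with ties at mid-rank. Whole-table fits used windows with 1 or more counts: edgeR 4.0.16 (quasi-likelihood, TMM, Benjamini-Hochberg), with DESeq2 1.42.0 and limma 3.58.1 (square root of count plus 0.375, columns centred) as alternatives. The edgeR and limma fits, but not DESeq2, were also run on simulated data, with outcomes not given here. Promoters were aligned with mafft 7.526. Named genes were those of the region and complement genes outside it with a shared direction and a difference of 3 or more over both replicates; Cd55 and Cd55b were named after their values were seen. Members and lists were chosen with earlier results of these data known. Since each library holds both alleles, the replicate number is a pairing; the deviations of paired columns from their allele means correlated at r = 0.334 across 34417 windows. Some genes of the region and of the complement list are not reported here. Of the complement list, Cfhr4, C4a, Cfp and Vsig4 were not analysed here.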

Additional observations from a re-analysis of the deposited data

How the results depend on the processing

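The count of windows called over the whole table, 0 with edgeR, was also 0 with the replicate block, DESeq2 size factors and the DESeq2 Wald test. It was 0 as well with bins of 500 kb and 1 Mb and with limma with the block. A minimum count of 10 left only 40 windows to test, none of them in the region, and 0 were called. The count was 78 with limma on centred square roots and 1 with 1 library size per replicate, and the cause was not tested. Leaving out a replicate leaves no residual degrees of freedom, so that fit was not made. The region's 129 share, 50.3%, was 47.7 to 52.9% with 1 replicate left out and 49.2 to 52.3% under scaling, without the window with the most counts and with other region edges. It was 50.6% without the windows of Cfhr2, Gm4788 and Cfhr3, an alternative chosen after seeing the data. The 13 windows of shared direction became 18 to 26 with 1 replicate left out, 3 at a difference of 2 or more, and 22 after scaling to equal column totals, where equal counts receive a direction. The 2 opposite pairs became 3 to 6 with 1 replicate left out, 1 at a difference of 2 or more, 3 after scaling to equal column totals, and 6 with undirected windows passed over. The pair inside Cfhr2 differs by only 1 count in replicate 1 and is the one lost. The difference of 129 minus CAS over Cfhr2, 2 counts, was 0 to 2 with 1 replicate left out, 5 in the window of its start alone and 1 with windows within 50 kb added.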
